A study of Gallus gallus with 6 samples.

Results

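Cytokines, chemokines, their receptors, the proteins that carry their signals and the surface molecules that mark immune cells were examined in the hearts of chick embryos at Hamburger-Hamilton stage (HH) 29. The genes were chosen by name, from the symbols that begin with IL, CXCL, CXCR, CCL, CCR, TLR, IRF, IFN, STAT, JAK, NFKB, TNFSF, CSF and CD followed by a number or subunit letter, together with REL, RELA, NFKBIA, MYD88, PTPRC, SPI1, LCP1, PLEK, CYBB, LY86, C3, BF1 and BF2. This gave 139 transcripts of 133 gene symbols, out of 6919 transcripts of 6542 symbols, and the rule uses no measured value. A CD number is only a name for a surface antigen, so 15 of the transcripts are CD proteins found on many cell types, and they are kept apart here from the genes of leukocytes.

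Of the 6 hearts, 3 came from OFT-banded embryos, whose outflow tract (OFT) had been narrowed with a suture tied at an earlier stage and left in place. The other 3 came from sham embryos, in which the suture was passed around the vessel and taken out again. All embryos were of the Dekalb white strain, with no transgene or drug, and each library was made from 1 whole heart with its atria, ventricles and blood, after globin transcripts had been depleted. OFT-banded hearts are numbered 6, 11 and 17 here as in the deposited columns, and sham hearts 38, 48 and 42. Values are RPKM, reads scaled to the length of the transcript and the depth of the library, which can be set against each other between genes.

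Chemokines are small secreted proteins that draw cells along a gradient by binding G protein-coupled receptors, while most interleukins and interferons bind receptor chains that activate Janus kinases (JAK) and, through them, STAT transcription factors. Toll-like receptors and interleukin-1 receptors act through MYD88 and free NF-kB proteins (REL, RELA, NFKB1, NFKB2) from their inhibitor NFKBIA, and interferon regulatory factors (IRF) control antiviral genes. In the embryonic heart the best known of these systems is the chemokine CXCL12 with its receptors CXCR4 and CXCR7, which is needed for vessel and valve formation, and primitive macrophages are the first leukocytes to settle in the tissue.

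Transcript levels followed the role of the gene. Of the 139 transcripts, 3 averaged at least 100 RPKM over the 6 hearts, 29 averaged 10 to 100 RPKM, 32 averaged 1 to 10 RPKM, 33 averaged 0.1 to 1 RPKM, 24 were detected below 0.1 RPKM and 18 were listed at 0 in all 6 hearts. Of all 6919 transcripts, 879 were listed at 0 in all 6 hearts. Signalling genes and the general CD proteins were the most readily measured: 17 of 20 signalling transcripts and 15 of 15 general CD transcripts reached a mean of 1 RPKM, the minimum used for testing. Receptors reached it in 12 of 35 cases, leukocyte genes in 11 of 25, and secreted ligands in 8 of 38. In all, 64 of the 139 were tested, and statements on tested members leave out the other 75. At the edge of that minimum, CD3D averaged 1.24 RPKM and CD80 (CD88 in the RefSeq table) 1.22 RPKM on the inside, and CD247 averaged 0.975 RPKM on the outside.

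**Figure D1:**
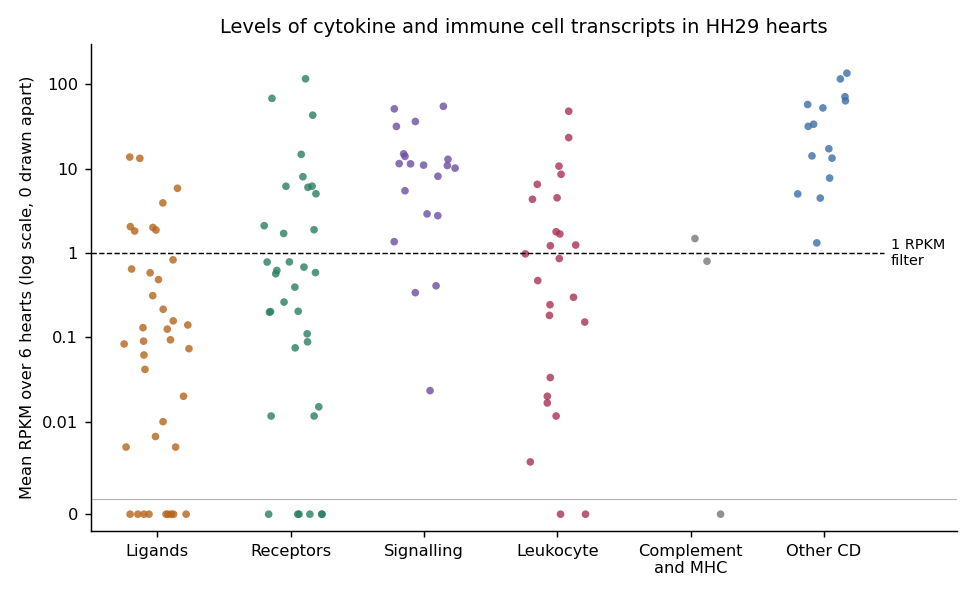
Mean RPKM over the 6 hearts on a log scale for the members of 6 role groups, 1 point per transcript, with the transcripts listed at 0 drawn on a line of their own and the testing minimum of 1 RPKM dashed. Signalling and general CD transcripts lie almost wholly above the minimum, whereas 30 of 38 ligand transcripts lie below it.

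The depth of the libraries set what the low values can show. From the whole steps between low values of microRNA rows, 1 RPKM in a transcript of 1 kilobase stood for 21.1 reads in heart 42, the shallowest, and for 41.2 reads in heart 11, the deepest, so that 1 read in such a transcript was worth between 0.0243 and 0.0473 RPKM. Heart 6 of the OFT-banded group and heart 42 of the sham group stood apart in many transcripts: over all 4726 tested transcripts, heart 6 was the lowest of the 6 in 42.2% and heart 42 the highest in 36.0%. The hearts also differed in red cell transcripts, all measured in globin-depleted libraries. HBE is not listed by that name among the globins targeted by the authors' depletion, whereas HBG1 is. HBE, an embryonic globin, was at 6490, 5303 and 10572 RPKM in OFT-banded hearts 6, 11 and 17, against 18595, 14107 and 36922 RPKM in sham hearts 38, 48 and 42. A fold change below 0 was found for 13 of 14 tested red cell genes (median log2 -0.73), beside 63.2% of all tested transcripts. In the limma comparison described next, no transcript passed an adjusted p of 0.05 between the groups.

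To ask whether the immune genes differed between banded and sham hearts, the groups were compared with limma on log2(RPKM + 1), a scale that understates the change of genes with low values. None of the 64 tested members passed an adjusted p of 0.05, and the smallest adjusted p among them was 0.543. Over all tested transcripts 0 passed as well (0%). At an unadjusted p under 0.05 there were 6 members (9.38% of 64), beside 8.57% of all tested transcripts, 2 of them higher in OFT-banded hearts (CXCL14 and IL13RA2; background 3.28%) and 4 lower (CXCR7, IFNAR2, STAT5B and TLR21; background 5.29%). The share among the members was thus close to that of the whole heart transcriptome.

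The same held for the order of the hearts. All 3 OFT-banded hearts lay to 1 side of all 3 sham hearts for 10 members (15.6%), beside 16.3% of all tested transcripts. Of these, CXCL14, IL13RA2 and IL1RL1 were higher in every OFT-banded heart (3 members, background 5.23%), and CXCR7, IFNAR2, STAT5B, TLR21, CCR7, PTPRC and CD81 were lower in every OFT-banded heart (7 members, background 11%). Fold changes were below 0 for 41 members (64.1%), beside 63.2% of all tested transcripts, and above 0 for 23 (35.9%), beside 36.8%. Under median-ratio scaling between hearts the share below 0 was 57.8% of members and 51.2% of all, and with the globin genes left out before scaling it was 70.3% and 74.0%. Without hearts 6 and 42 it was 43.8% of members and 50% of all. The median log2 fold change was -0.08 over the members and -0.07 over all tested transcripts.

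**Figure D2:**
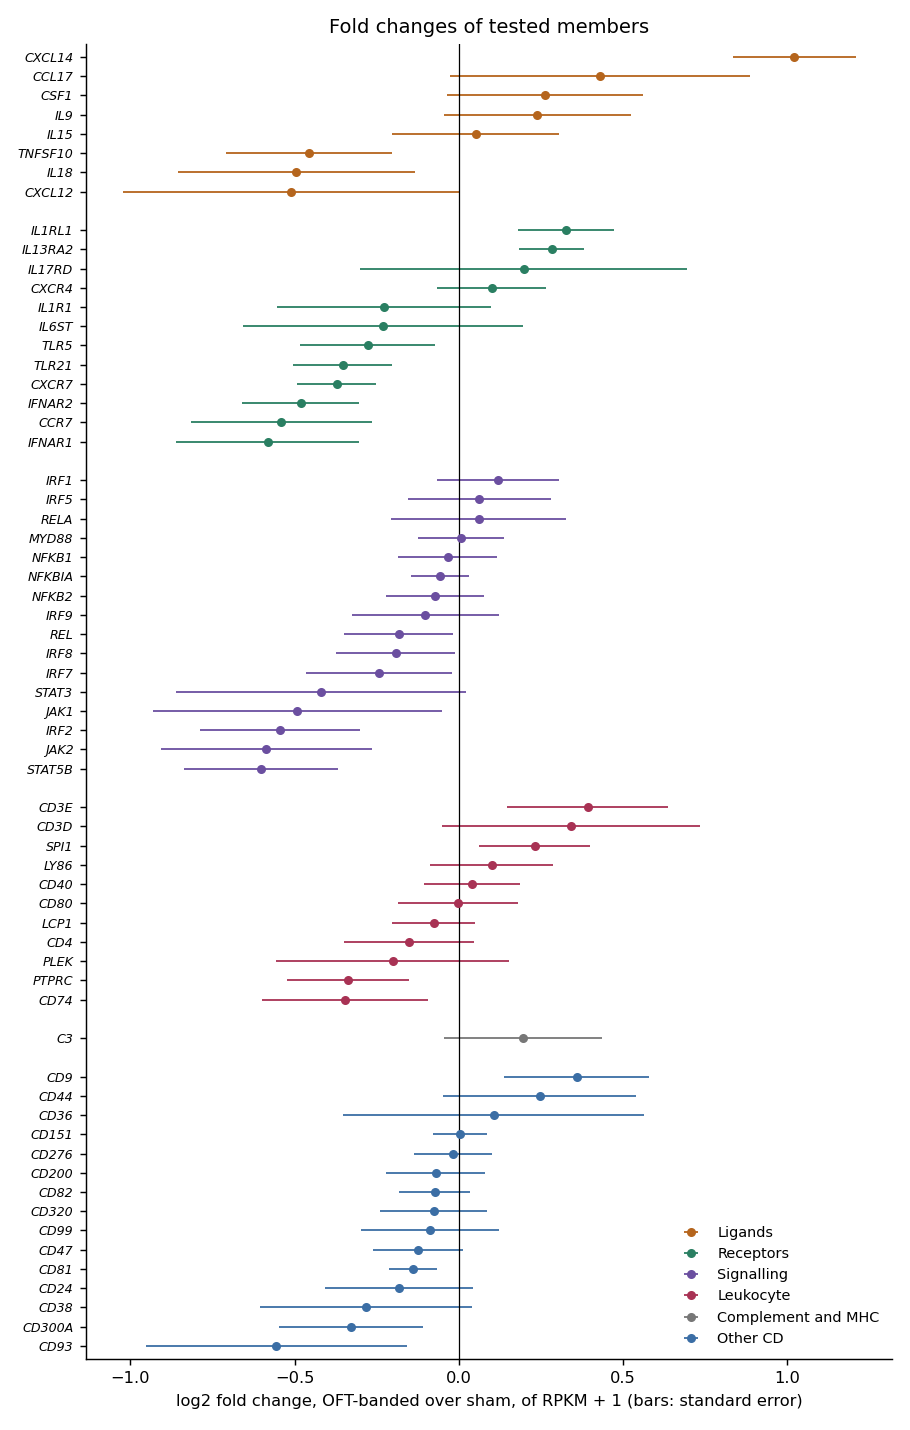
Log2 fold change of RPKM + 1, OFT-banded over sham, for tested members, each ordered within its role, with bars of 1 standard error (3 hearts in each group). CXCL14 stands farthest to the right at 1.02, and most other estimates lie within 1 or 2 standard errors of 0.

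Among the secreted ligands, CXCL14 had the largest difference of any tested member. This chemokine of epithelia and stroma (NM_204712), known in mammals to attract monocytes and immature dendritic cells, was at 3.26, 2.47 and 2.81 RPKM in OFT-banded hearts 6, 11 and 17, against 0.93, 0.72 and 1.03 RPKM in sham hearts 38, 48 and 42. The lowest OFT-banded heart was above the highest sham heart, and the ratio of the group means was 3.19. On the log2(RPKM + 1) scale the difference was 1.02 (standard error, SE, 0.19), or 1.57 with a pseudocount of 0.1. The unadjusted p was 0.000880 and the adjusted p 0.543 (limma), so the difference did not pass the test over all transcripts, and CXCL14 passed the minimum of 1 RPKM through its level in the OFT-banded hearts. With each heart left out in turn the unadjusted limma p did not exceed 0.00480. For a transcript of 1 kilobase these values would stand for 21.8 to 102 reads in a heart.

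The other 7 tested ligands had overlapping groups. CXCL12, the ligand of CXCR4 and CXCR7, had the highest mean of the ligands, at 4.46, 15.2 and 14.2 RPKM in OFT-banded hearts 6, 11 and 17, against 7.69, 18.3 and 22.3 RPKM in sham hearts 38, 48 and 42. The spread within each group was as wide as the step between them, and the log2 fold change of -0.51 (SE 0.51; in limma adjusted p = 0.689) turned to 0.28 when hearts 6 and 42 were both left out. TNFSF10, the death ligand also called TRAIL, was at 8.75, 12.2 and 11.5 RPKM in OFT-banded hearts and 10.1, 16.5 and 20.4 RPKM in sham hearts (log2 fold change -0.46, SE 0.25; in limma adjusted p = 0.559). The log2 fold change of TNFSF10 was -0.25 without heart 42 and -0.12 without hearts 6 and 42. CSF1, the growth factor of macrophages, was at 3.86, 7.35 and 8.34 RPKM in OFT-banded hearts, against 4.91, 3.72 and 6.86 RPKM in sham hearts, and its log2 fold change of 0.26 was within its standard error of 0.30 (in limma adjusted p = 0.721). Without heart 6 the log2 fold change was 0.55, and without hearts 6 and 42 it was 0.74. The receptor of CSF1, CSF1R, and the second ligand of that receptor, IL34, were not analysed here.

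Of the remaining tested ligands, CCL17 is a chemokine for T cells, IL15 supports lymphocytes, IL18 belongs to the interleukin-1 family and IL9 is a T cell cytokine. CCL17 had 1 heart far from the others, at 5.31 RPKM in OFT-banded heart 6, beside 0.68 and 1.96 RPKM in OFT-banded hearts 11 and 17 and 0.97 to 1.58 RPKM in the sham hearts. IL18 ran the other way in the same heart, at 1.41 RPKM in heart 6, beside 3.26 and 4.87 RPKM in the other OFT-banded hearts and 3.04 to 5.91 RPKM in sham hearts. IL15 averaged 2.06 ± 0.277 RPKM in OFT-banded hearts and 2.04 ± 0.980 RPKM in sham hearts, and IL9 averaged 2.05 ± 0.763 RPKM in OFT-banded hearts and 1.58 ± 0.629 RPKM in sham hearts (SD, n = 3 each). The median log2 fold change of the 8 tested ligands was 0.14. Among the 4 role groups with at least 10 tested members it was -0.26 for receptors, -0.18 for signalling genes, -0.00 for leukocyte genes and -0.08 for general CD proteins. These medians moved with single choices: that of the ligands was -0.46 over the 3 with a mean of at least 5 RPKM, and without hearts 6 and 42 those of receptors, signalling genes and leukocyte genes were -0.01, 0.01 and 0.23. Without hearts 6 and 42 the median of all tested transcripts also rose, from -0.07 to -2.5e-05.

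Of the 12 tested receptors, 6 had groups that did not overlap, 2 higher and 4 lower in OFT-banded hearts, beside 16.3% of all tested transcripts. CXCR7, an atypical receptor that takes up CXCL12 without G protein signalling and lowers its free level, was the most abundant receptor and, after CD81, the most abundant member. It was at 104, 96.9 and 101 RPKM in OFT-banded hearts 6, 11 and 17, against 112, 128 and 154 RPKM in sham hearts 38, 48 and 42. The OFT-banded hearts lay close together below the lowest sham heart, and heart 42 was highest. On the log2 scale the difference was -0.37 ± 0.12 (standard error), with a limma p of 0.0167, or 0.543 once adjusted. When 1 heart was left out the unadjusted p reached at most 0.0542. CXCR4, the signalling receptor for the same ligand, was far less abundant and showed no such order, at 5.83, 5.20 and 4.65 RPKM in OFT-banded hearts and 4.0, 5.53 and 4.96 RPKM in sham hearts (log2 fold change 0.10, SE 0.17; in limma adjusted p = 0.811).

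IL13RA2, a receptor chain that in mammals binds interleukin-13 and acts largely as a decoy, was the second most abundant receptor (NM_001048078). It was at 77.8, 78.3 and 68.0 RPKM in OFT-banded hearts 6, 11 and 17, against 67.1, 56.7 and 60.2 RPKM in sham hearts 38, 48 and 42. Every OFT-banded heart was higher than every sham heart, although heart 17 exceeded heart 38 by under 1 RPKM. On the log2 scale the difference was 0.28 ± 0.10 (standard error), with a limma p of 0.0251, or 0.543 once adjusted. When 1 heart was left out the unadjusted p reached at most 0.0867. Both transcripts of IL13, its ligand, were listed at 0 in all 6 hearts, as was IL4.

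The chains of the type I interferon receptor were both lower on average in OFT-banded hearts. IFNAR2 was at 27.2, 42.9 and 37.7 RPKM in OFT-banded hearts 6, 11 and 17, against 43.1, 52.2 and 54.7 RPKM in sham hearts 38, 48 and 42. The groups did not overlap, with heart 11 just under heart 38 (log2 fold change -0.48, SE 0.18; in limma unadjusted p = 0.0300, adjusted p = 0.543). IFNAR1 was at 8.17, 13.6 and 12.7 RPKM in OFT-banded hearts and 11.9, 18.1 and 24.0 RPKM in sham hearts, where the groups overlapped (log2 fold change -0.58, SE 0.28; in limma unadjusted p = 0.0744). In both, heart 6 was the lowest and heart 42 the highest of the 6 hearts. With hearts 6 and 42 left out, the log2 fold change of IFNAR2 was -0.23. IFNG was listed at 0 in every heart, while its receptor chain IFNGR1, which the choice by name does not reach, was at 9.14, 8.71 and 6.95 RPKM in OFT-banded hearts, against 5.04, 5.20 and 5.90 RPKM in sham hearts. All OFT-banded hearts were above all sham hearts for IFNGR1 (log2 fold change 0.53, SE 0.15, in limma unadjusted p = 0.00978, adjusted p = 0.543). IFNGR2, the other chain of that receptor, was more abundant and went the other way on average. It was at 43.3, 54.9 and 47.8 RPKM in OFT-banded hearts and 51.4, 54.5 and 58.9 RPKM in sham hearts, with overlap (log2 fold change -0.18, SE 0.11).

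TLR21, a receptor of birds for unmethylated CpG DNA, was the most abundant Toll-like receptor, at 4.95, 5.58 and 5.31 RPKM in OFT-banded hearts 6, 11 and 17, against 6.03, 8.0 and 7.16 RPKM in sham hearts 38, 48 and 42. Each OFT-banded heart was below each sham heart (log2 fold change -0.35, SE 0.15; in limma unadjusted p = 0.0495, adjusted p = 0.543), and the unadjusted p reached 0.173 when 1 heart was left out. TLR5, the receptor for flagellin, averaged 1.81 ± 0.439 RPKM in OFT-banded hearts and 2.40 ± 0.419 RPKM in sham hearts (SD, n = 3 each), with overlap. TLR4, TLR7, TLR3 and TLR15 averaged below 1 RPKM, the highest of them TLR4 at no more than 1.04 RPKM in any heart.

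IL1RL1, the receptor for interleukin-33 in mammals (NM_001024590), was at 8.95, 9.21 and 8.82 RPKM in OFT-banded hearts, against 8.11, 5.89 and 7.08 RPKM in sham hearts, again without overlap (log2 fold change 0.33, SE 0.15; in limma unadjusted p = 0.0603). The other 2 transcripts under that symbol did not exceed 0.20 RPKM. CCR7, the receptor that guides lymphocytes and dendritic cells to lymphoid tissue, was at 0.71, 1.41 and 1.42 RPKM in OFT-banded hearts, against 1.58, 1.74 and 3.35 RPKM in sham hearts, and heart 42 alone stood well above the rest (log2 fold change -0.54, SE 0.28; in limma adjusted p = 0.543). IL17RD, a membrane protein that restrains fibroblast growth factor signalling, ranged over 1.98, 7.65 and 12.2 RPKM among the OFT-banded hearts, against 5.01, 5.67 and 4.63 RPKM in sham hearts. That range among 3 hearts of 1 group was the widest of any tested receptor relative to its mean.

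**Figure D3:**
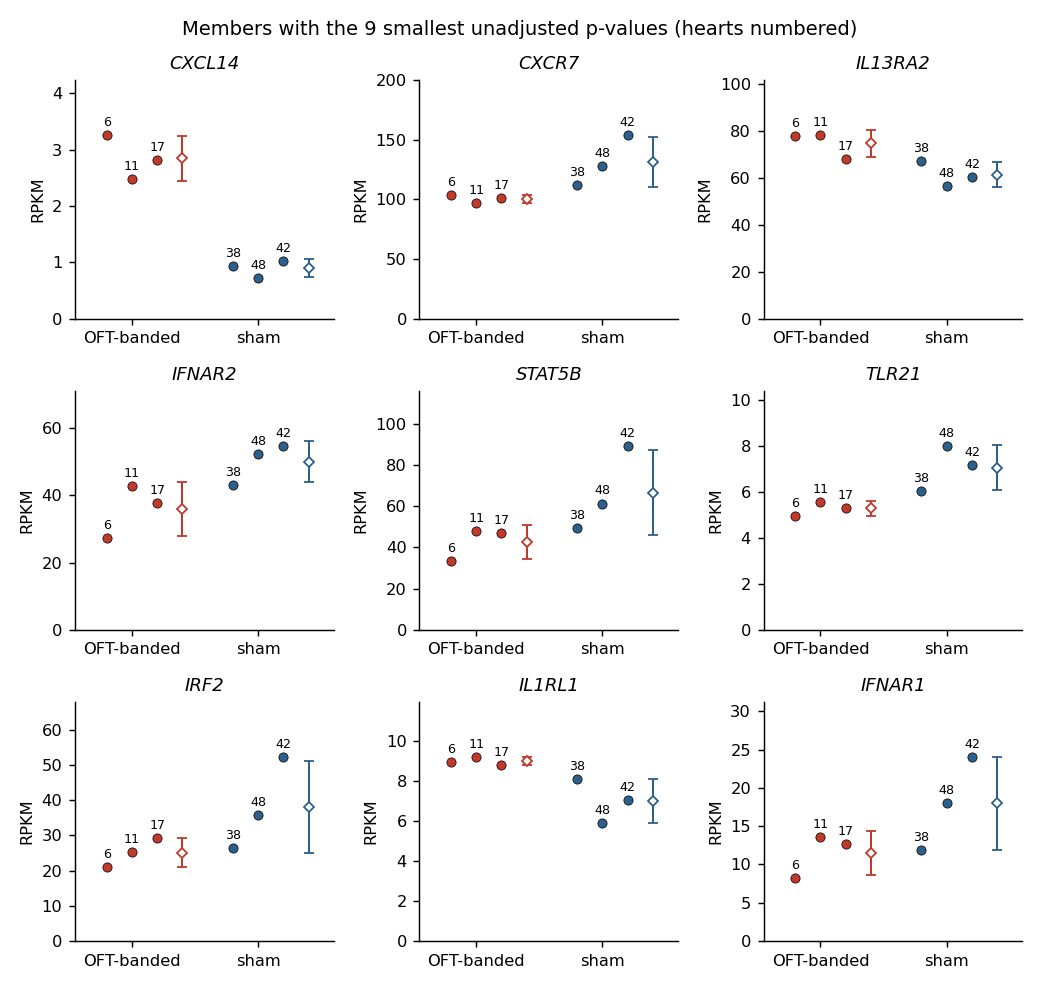
RPKM in each heart (numbered points) for the 9 members with the smallest unadjusted p-values, OFT-banded hearts in red at the left and sham hearts in blue at the right of each panel, with the mean and SD of 3 hearts as an open diamond with bars. CXCL14 separates the groups by the widest margin, and in STAT5B, IRF2 and IFNAR1 sham heart 42 stands above the other sham hearts.

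Most signalling genes were lower on average in OFT-banded hearts, 13 of 17 with a fold change below 0, beside 63.2% of all tested transcripts, and none passed the test. Their median log2 fold change of -0.18 was 0.01 without hearts 6 and 42, while that of all tested transcripts went from -0.07 to -2.5e-05. STAT5B, a transcription factor for growth hormone and cytokine receptors, was the most abundant of them. The RefSeq table used here lists the same transcript as STAT5A. It was at 33.4, 47.9 and 47.2 RPKM in OFT-banded hearts 6, 11 and 17, against 49.3, 61.4 and 89.3 RPKM in sham hearts 38, 48 and 42. The groups did not overlap, hearts 11 and 38 lying closest (log2 fold change -0.60, SE 0.23; in limma unadjusted p = 0.0362, adjusted p = 0.543). Without hearts 6 and 42 the log2 fold change was -0.21.

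IRF2, which represses genes that IRF1 activates, was at 20.9, 25.1 and 29.2 RPKM in OFT-banded hearts, against 26.5, 35.7 and 52.3 RPKM in sham hearts, so that heart 17 overlapped heart 38 (log2 fold change -0.55, SE 0.24; in limma unadjusted p = 0.0596). The log2 fold change of IRF2 was -0.30 without heart 42 and -0.18 without hearts 6 and 42. IRF1 itself averaged 1.46 ± 0.239 RPKM in OFT-banded hearts and 1.26 ± 0.0361 RPKM in sham hearts (SD, n = 3 each). STAT5B, IRF2, IFNAR1, IFNAR2, JAK2 and TNFSF10 were all highest in heart 42 and lowest in heart 6. Sham heart 42 also had the highest summed level of red cell genes, at 42245 RPKM over 17 transcripts, beside 7707, 6452 and 12545 RPKM in OFT-banded hearts 6, 11 and 17 and 20936 and 16680 RPKM in sham hearts 38 and 48. Most of that sum was globin transcript in globin-depleted libraries. In heart 42 HBE, not a named target of the depletion, was at 36922 RPKM, and HBG1, a named target, was at 4492 RPKM. The summed level of 5 thrombocyte genes was lowest in heart 6, at 52.3 RPKM, and highest in heart 42, at 236 RPKM. The part of red cells or thrombocytes in these differences was not tested, and in whole hearts fewer cells of a type and less RNA per cell cannot be told apart.

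The chain from the shared receptor subunit of the interleukin-6 family to STAT3 varied widely from heart to heart. IL6ST, that subunit (gp130), was at 2.62, 6.25 and 7.38 RPKM in OFT-banded hearts 6, 11 and 17, against 3.11, 8.68 and 7.96 RPKM in sham hearts 38, 48 and 42. JAK1 was at 19.1, 54.9 and 58.1 RPKM in OFT-banded hearts and 37.4, 66.8 and 70.1 RPKM in sham hearts. STAT3 was at 4.48, 11.2 and 12.1 RPKM in OFT-banded hearts and 6.28, 15.9 and 16.0 RPKM in sham hearts. In each of the 3, heart 6 was the lowest of the OFT-banded hearts and heart 38 the lowest of the sham hearts. JAK2, the kinase of growth hormone and several cytokine receptors, followed the same order, at 1.06, 2.44 and 2.90 RPKM in OFT-banded hearts, against 2.20, 4.16 and 4.66 RPKM in sham hearts. Log2 fold changes were -0.23 for IL6ST, -0.49 for JAK1, -0.42 for STAT3 and -0.59 for JAK2, with standard errors of 0.43, 0.44, 0.44 and 0.32, and without hearts 6 and 42 those of IL6ST, JAK1, STAT3 and JAK2 were 0.31, 0.17, 0.19 and -0.15. That of JAK2 was -0.31 without heart 6 alone. IL6 itself did not exceed 0.22 RPKM in any heart.

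NFKBIA and the adaptor MYD88 had the smallest standard errors of the signalling set, at 0.09 and 0.13, while the other NF-kB genes varied more. NFKBIA, the inhibitor, was at 38.3, 33.7 and 34.4 RPKM in OFT-banded hearts, against 36.7, 37.1 and 36.8 RPKM in sham hearts (log2 fold change -0.06, SE 0.09, adjusted p = 0.791 from limma; 0.01 under median-ratio scaling). The adaptor MYD88 averaged 15.0 ± 2.07 RPKM in OFT-banded hearts and 14.9 ± 0.601 RPKM in sham hearts. NFKB1 averaged 10.02 ± 1.55 RPKM in OFT-banded hearts and 10.2 ± 1.03 RPKM in sham hearts. NFKB2 averaged 10.6 ± 1.27 RPKM in OFT-banded hearts and 11.2 ± 1.52 RPKM in sham hearts (SD, n = 3 each). REL had a log2 fold change of -0.18 (SE 0.17). RELA had the wider spread, from 7.62 RPKM in heart 38 to 17.04 RPKM in heart 42, both sham hearts. Among the interferon factors, IRF7, IRF8 and IRF9 had log2 fold changes between -0.24 and -0.10, each with an adjusted p of at least 0.665 (limma).

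Partner genes that are not among the members were taken from lists of the same pathways. Of 18 tested JAK-STAT and cytokine receptor partners, 15 had a fold change below 0, beside 63.2% of all tested transcripts, and 3 above (median log2 -0.13). Those with an unadjusted limma p under 0.05 were IFNGR1, higher, and PIAS2, an inhibitor of STAT activity, which was at 11.2, 11.1 and 11.4 RPKM in OFT-banded hearts, against 14.3, 15.9 and 16.3 RPKM in sham hearts (log2 fold change -0.43, SE 0.11, unadjusted p = 0.00563, adjusted p = 0.543). Of 16 tested partners of NF-kB and the Toll-like receptors, all 16 had a fold change below 0 (median log2 -0.15), beside 63.2% of all tested transcripts. Some lay close to 0, such as IRAK4 at -0.012 and RIPK1 at -0.043. The partner counts are for the values as deposited, and under median-ratio scaling the share of all tested transcripts below 0 was 51.2%. An unadjusted limma p under 0.05 was found for 8.57% of all tested transcripts. The only one with an unadjusted limma p under 0.05 was BIRC2, a ubiquitin ligase of the TNF receptor pathway, at 14.6, 19.9 and 20.3 RPKM in OFT-banded hearts and 21.1, 24.1 and 34.2 RPKM in sham hearts (log2 fold change -0.50, SE 0.21, unadjusted p = 0.0445). Of 10 tested interferon response genes, 4 lay above 0 and 6 below (median log2 -0.16), and none had an unadjusted limma p under 0.05.

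Leukocyte genes were present at low to moderate levels in every heart. PTPRC (CD45), the phosphatase on all leukocytes, was at 1.09, 1.45 and 1.57 RPKM in OFT-banded hearts 6, 11 and 17, against 1.89, 1.87 and 2.20 RPKM in sham hearts 38, 48 and 42. All OFT-banded hearts were lower, but the difference did not pass the test (log2 fold change -0.34, SE 0.19; in limma unadjusted p = 0.110, adjusted p = 0.558). SPI1 (PU.1), the transcription factor of myeloid cells, went the other way on average, at 4.22, 4.76 and 5.90 RPKM in OFT-banded hearts and 3.63, 4.14 and 4.40 RPKM in sham hearts (log2 fold change 0.23, SE 0.17; in limma adjusted p = 0.617).

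The remaining defining markers overlapped between the groups. LCP1, an actin-bundling protein of leukocytes, was at 9.58, 10.1 and 11.5 RPKM in OFT-banded hearts and 10.5, 10.7 and 11.8 RPKM in sham hearts. LY86 (MD-1), expressed by macrophages and B cells, was at 7.14, 8.36 and 11.3 RPKM in OFT-banded hearts, against 8.62, 7.06 and 8.84 RPKM in sham hearts. PLEK, a protein of platelets and leukocytes, was at 2.13, 3.90 and 5.97 RPKM in OFT-banded hearts and 2.75, 4.99 and 6.23 RPKM in sham hearts. In these 3 genes and in PTPRC and SPI1, heart 17 was the highest of the OFT-banded hearts and heart 42 the highest of the sham hearts. CYBB, the catalytic subunit of the phagocyte oxidase, stayed below the testing minimum at 0.21, 0.47 and 0.32 RPKM in OFT-banded hearts, against 0.43, 0.76 and 0.63 RPKM in sham hearts.

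CD74, the invariant chain of MHC class II, was the most abundant leukocyte gene, at 36.1, 34.1 and 55.7 RPKM in OFT-banded hearts 6, 11 and 17, against 56.0, 67.4 and 38.1 RPKM in sham hearts 38, 48 and 42. Unlike the markers above, it was lowest among sham hearts in heart 42 (log2 fold change -0.35, SE 0.25; in limma adjusted p = 0.617). CD40, a costimulatory receptor, was at 19.4, 26.6 and 25.1 RPKM in OFT-banded hearts and 20.4, 23.3 and 25.0 RPKM in sham hearts. Together the 23 leukocyte transcripts other than CD74 and CD40 summed to 37.7, 40.7 and 52.1 RPKM in OFT-banded hearts and 41.0, 43.7 and 47.4 RPKM in sham hearts, so that the summed level overlapped. Of the 11 tested leukocyte genes, 5 had a fold change above 0 and 6 below, where 63.2% of all tested transcripts were below 0.

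**Figure D4:**
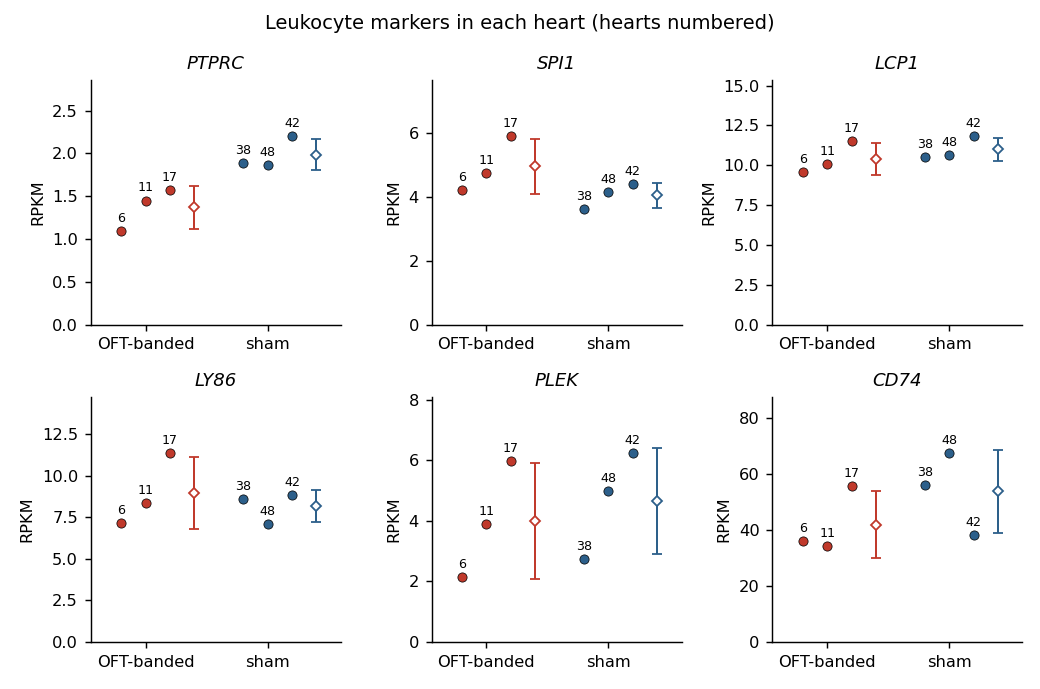
RPKM in each heart (numbered points) for 6 leukocyte genes, OFT-banded hearts in red at the left and sham hearts in blue at the right, with the mean and SD of 3 hearts as an open diamond with bars. PTPRC alone of the 6 shows no overlap of the groups (OFT-banded 1.09 to 1.57 RPKM, sham 1.87 to 2.20 RPKM).

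Genes of lymphocytes were mostly near the limit of detection. Of the chains of the T cell receptor complex, CD3E was at 1.93, 1.66 and 2.88 RPKM in OFT-banded hearts, against 1.77, 0.86 and 1.6 RPKM in sham hearts (log2 fold change 0.39, SE 0.25; in limma adjusted p = 0.588). CD3D was at 0.80, 1.16 and 2.45 RPKM in OFT-banded hearts and 2.13, 0.37 and 0.54 RPKM in sham hearts, a range among sham hearts wider than the difference of the group means. CD247, the zeta chain of the complex, lay below the testing minimum and was lower on average in OFT-banded hearts, at 0.90, 0.53 and 0.69 RPKM, against 1.08, 0.87 and 1.78 RPKM in sham hearts, with overlap. CD4 averaged 6.07 ± 0.878 RPKM in OFT-banded hearts and 6.94 ± 1.78 RPKM in sham hearts (SD, n = 3 each). CD8A and the row named CD8B (CD8BP in the RefSeq table) did not exceed 0.09 RPKM, CD79B, a chain of the B cell receptor, did not exceed 0.32 RPKM, CD69 was listed at 0 throughout, and CD14, a receptor for bacterial lipopolysaccharide on monocytes, did not exceed 0.34 RPKM. CD28, the costimulatory receptor of T cells, had 0.04, 0.03 and 0.03 RPKM in OFT-banded hearts and was listed at 0 in all sham hearts, values of about 1 read in a transcript of 1 kilobase.

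Of 12 tested leukocyte genes outside the choice by name, 4 had a fold change above 0 and 8 below (median log2 -0.11). Of all tested transcripts, 63.2% were below 0, and 8.57% had an unadjusted limma p under 0.05. RAC2, a GTPase of blood cells, was at 5.76, 3.75 and 5.47 RPKM in OFT-banded hearts and 8.08, 7.02 and 6.57 RPKM in sham hearts (log2 fold change -0.47, SE 0.18; in limma unadjusted p = 0.0365). CEBPB, a transcription factor of myeloid and inflammatory responses, was higher in each OFT-banded heart, at 3.02, 2.68 and 4.6 RPKM, against 1.73, 2.24 and 2.38 RPKM in sham hearts (log2 fold change 0.49, SE 0.22; in limma unadjusted p = 0.0578).

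Complement and MHC class I were represented by 3 transcripts. C3, the central component of complement, was at 1.42, 1.52 and 1.94 RPKM in OFT-banded hearts and 0.86, 1.14 and 2.01 RPKM in sham hearts (log2 fold change 0.19, SE 0.24; in limma adjusted p = 0.743). BF2, an MHC class I gene of the chicken, was at 1.03, 0.74 and 0.15 RPKM in OFT-banded hearts and 0.91, 0.79 and 1.17 RPKM in sham hearts, and its closely related neighbour BF1 was listed at 0 in all 6. Reads that fit both BF genes would have been left out by the authors' filter for unique alignments, so these levels are uncertain. The genes of C1q and B2M were not analysed here.

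The general CD proteins held 2 of the 3 most abundant members, the tetraspanins CD81 and CD151. CD81 was at 124, 136 and 126 RPKM in OFT-banded hearts 6, 11 and 17, against 140, 140 and 146 RPKM in sham hearts 38, 48 and 42. Every OFT-banded heart was lower, by a small step (log2 fold change -0.14, SE 0.07; in limma unadjusted p = 0.0961, adjusted p = 0.544). CD151 was at 108, 120 and 119 RPKM in OFT-banded hearts and 118, 108 and 120 RPKM in sham hearts, and its log2 fold change of 0.00 (SE 0.08) turned to -0.03 with all hearts brought to 1 common sum and to -0.07 without the globin genes. CD276 (B7-H3), an immune checkpoint ligand found on many tissues, was at 82.9, 68.2 and 61.7 RPKM in OFT-banded hearts and 74.5, 71.6 and 67.8 RPKM in sham hearts (log2 fold change -0.02, SE 0.12; 0.05 under median-ratio scaling). CD9, another tetraspanin, was at 17.1, 13.9 and 13.6 RPKM in OFT-banded hearts, against 16.2, 10.04 and 8.90 RPKM in sham hearts, where heart 38 reached into the OFT-banded range (log2 fold change 0.36, SE 0.22; in limma adjusted p = 0.586).

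CD47, the surface signal that protects cells from phagocytosis, averaged 60.9 ± 9.52 RPKM in OFT-banded hearts and 66.2 ± 6.62 RPKM in sham hearts. CD93, a lectin-like receptor of endothelium and myeloid cells, averaged 11.3 ± 4.57 RPKM in OFT-banded hearts and 17.02 ± 6.75 RPKM in sham hearts, and CD36, a receptor for fatty acids and thrombospondin, averaged 7.75 ± 2.95 RPKM in OFT-banded hearts and 7.68 ± 4.19 RPKM in sham hearts (SD, n = 3 each). The SDs of CD93 and CD36 exceeded or neared the difference of their means. The median log2 fold change of the 15 general CD proteins was -0.08, with values from -0.56 for CD93 to 0.36 for CD9.

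Most inflammatory ligands were not detectable at this depth or nearly so. The 18 transcripts listed at 0 in every heart were 9 ligands (IL2, IL3, IL4, both rows of IL13, IL17A, CSF2, CCL5 and IFNG), 6 receptors (CCR6, CCR9, IL2RA, both rows of IL2RG and 1 row of IL1RL1), the leukocyte genes CD69 and 1 row of CD8A, and BF1. These 18 of 139 members stand beside 879 of all 6919 transcripts listed at 0 in every heart. IL1B, the principal interleukin-1 ligand, was at 0.48, 1.14 and 0.83 RPKM in OFT-banded hearts and 1.17, 1.01 and 0.34 RPKM in sham hearts. IL10, an anti-inflammatory cytokine, was at 0.31, 0.05 and 0.11 RPKM in OFT-banded hearts and at 0, 0 and 0.09 RPKM in sham hearts. IL8L2, a chicken relative of interleukin-8, was at 0.17, 0.14 and 0.16 RPKM in OFT-banded hearts, against 0.08, 0.05 and 0.04 RPKM in sham hearts. It and CD28 were the only 2 of the 75 members below the testing minimum with no overlap between the groups (2.67%), beside 4.29% of all 2193 transcripts below it. Both were higher in OFT-banded hearts (background 1.92%), and both were picked out after their values were seen. The other IL8 relative, IL8L1, did not exceed 0.04 RPKM, and IL4I1 did not exceed 0.01 RPKM. CSF3 and IL17D had 1 or 2 hearts well above the rest, CSF3 at 1.70 RPKM in sham heart 42 beside at most 0.50 RPKM elsewhere, and IL17D at 1.74 RPKM in OFT-banded heart 17 and 1.37 RPKM in sham heart 48 beside at most 0.28 RPKM elsewhere.

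Differences between hearts of 1 group were in many members larger than those between the groups. Heart 6 was the lowest of the 6 hearts in 36 of the 64 tested members (56.2%, beside 42.2% of all tested transcripts), and heart 42 was the highest in 31 (48.4%, beside 36.0%). In 14 members (21.9%) heart 6 was at a ratio under 0.5 to the mean of hearts 11 and 17, beside 7.22% of all tested transcripts. These were IL17RD, CXCL12, CD38, JAK1, IL1R1, IL18, IL6ST, STAT3, JAK2, CD93, PLEK, CD3D, CSF1 and CD36, with ratios of 0.20 for IL17RD and 0.303 for CXCL12 at the low end. The same genes tended to be low in sham heart 38. In 8 members (12.5%) heart 38 was at a ratio under 0.5 to the mean of hearts 48 and 42, beside 5.18% of all tested transcripts, and all 8 were among the 14. They made up 57.1% of the 14 and 100% of the 8, beside 42.5% and 59.2% when the same lists were made from all tested transcripts. In 14 members (21.9%) heart 42 was at a ratio over 1.5 to the mean of hearts 38 and 48, beside 6.54% of all, the highest of them CCR7 at 2.02, C3 at 2.01 and RELA at 1.98. These lists were made after the values were seen and describe these 6 hearts.

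**Figure D5:**
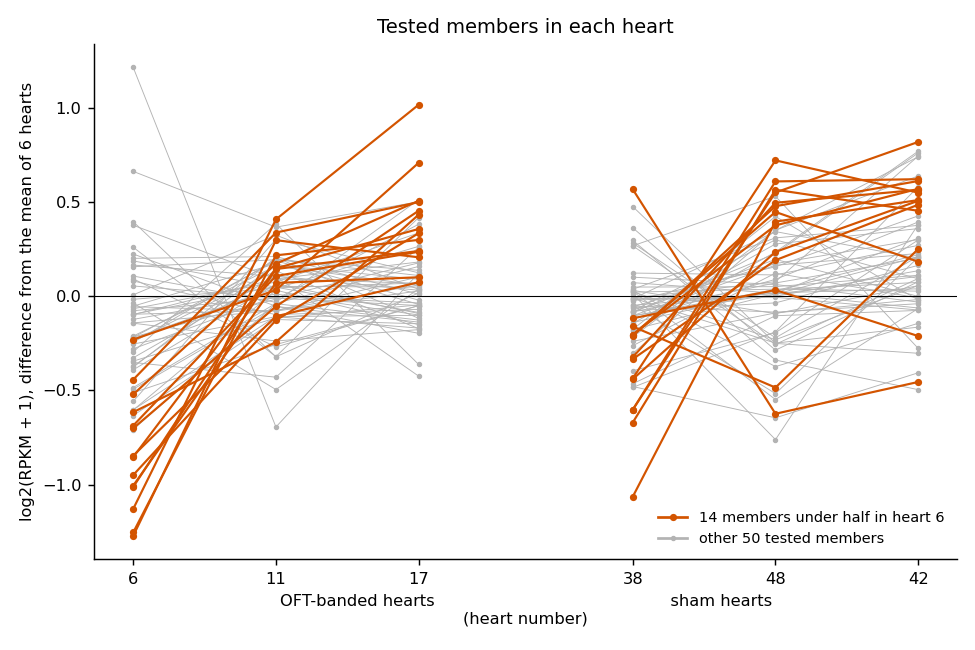
Log2(RPKM + 1) of the 64 tested members in each numbered heart, OFT-banded hearts at the left and sham hearts at the right, as the difference from the mean of all 6 hearts, with lines joining the values of 1 transcript within a group. The 14 members with a ratio under 0.5 in heart 6 are drawn in orange, and 8 of them were also low in sham heart 38.

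Genes of other heart cells varied along with these hearts to different degrees. The summed level of 9 epicardial and mesenchymal genes was 955, 1420 and 1353 RPKM in OFT-banded hearts 6, 11 and 17, against 965, 1332 and 1502 RPKM in sham hearts 38, 48 and 42, so that hearts 6 and 38 were the lowest, as they were for CXCL12, IL6ST, STAT3 and CD93. TCF21 of that list went against its sum, being highest of the 6 hearts in heart 6, at 190 RPKM. The sum of 8 endothelial genes was 253, 280 and 278 RPKM in OFT-banded hearts, against 254, 307 and 301 RPKM in sham hearts, with hearts 6 and 38 again lowest. Most of that sum was CDH5 and EGFL7, and single genes differed. CDH5, FLT1, FLT4 and ERG were lowest of the 6 hearts in heart 6, while EGFL7 and SOX17 were highest there, at 124 and 12.1 RPKM. The sum of 12 cardiomyocyte transcripts ran the other way, at 77675, 71579 and 75888 RPKM in OFT-banded hearts 6, 11 and 17, against 66200, 64893 and 51354 RPKM in sham hearts 38, 48 and 42. In this sum heart 6 was thus the highest and heart 42 the lowest, and 8 of the 12 had a fold change above 0 (median log2 0.21). Single genes differed here too. MYL2 and MYL3, which weigh heavily in the sum, were highest of the 6 hearts in heart 6, at 21885 and 16516 RPKM. ACTN2 was lowest of the 6 in heart 6, at 128 RPKM, and ACTC1 was highest in heart 17, at 19029 RPKM. The part of these cell types in the heart-to-heart differences of the immune genes was not tested. The authors report some degradation of the sequenced RNA, from freezing and thawing and from globin depletion. No value is given for each heart, and the part of RNA quality was not tested either.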

How the data were processed

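RNA of 3 OFT-banded and 3 sham hearts was sequenced by the authors, with 1 library per heart, on a NextSeq instrument as strand-specific paired ends after globin depletion. The authors used scythe and sickle for trimming, TopHat for alignment to galGal4, unique alignments only, and HTSeq for counting; versions are not given in the sources used here. The deposited RPKM values were made by the authors from these counts, 1 per RefSeq transcript, to 2 decimals. The columns name the group and carry heart numbers found in no label. Nothing in the sources says that hearts were matched, and p-values measure the spread among 3 hearts in each group.

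Members were found by gene name, and 125 of 139 matched the RefSeq table of a later assembly, so no coordinates are given. The members and lists were chosen with earlier results of these data known. RPKM was transformed to log2(RPKM + 1), transcripts with a mean of at least 1 RPKM were kept (4726), and limma 3.58.1 (R 4.3.3) compared the groups, moderating the variances with an intensity trend and applying the Benjamini-Hochberg adjustment over all of them. Other steps used Python 3.11.15 with pandas 2.3.3 and numpy 2.4.6. Since 3 hearts against 3 allow no two-sided exact p below 0.1, no permutation test was run. Depth was estimated from steps between low values of microRNA rows, with 97.7% or more of the values lying within 0.1 of a whole read, and the step of heart 42 was halved; such counts cover counting error only. In a simulation of 4726 genes with spreads like those measured, limma found 73% of genes changed by 1 and 96% of those changed by 2 on the log2 scale, with 11 false calls among 4526 unchanged genes. The noise of each simulated gene was drawn independently, without the shifts that single hearts share over many transcripts. These rates may therefore not hold for the real hearts.

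Values in every heart are given for the 5 members with the smallest p in each direction, the 3 most abundant of each role, the leukocyte markers, the CXCL12, CSF1 and IL6ST pathways and IFNGR1. The rest, the genes of the heart-to-heart section among them, were chosen later. The alternatives tried changed the pseudocount (0.1), the filter (none, or 5 RPKM), the scaling (equal sums, median ratios, or without globin genes) and the moderation (robust, or with no trend), or left out each heart in turn. Leaving out hearts 6 and 42 together was added after the data were seen. Some items are not reported here.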

Additional observations from a re-analysis of the deposited data

How the results depend on the processing

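No member passed an adjusted p of 0.05 under any of the 15 alternatives. The number of members with an unadjusted limma p under 0.05, 6 in the comparison of all hearts, was 2 to 13 when 1 heart was left out. It was 3 without heart 6 (4.69% of members, beside 6.62% of all tested transcripts) and 2 without heart 48 (3.12%, beside 6.50%). Without heart 42 it was 3 (4.69%, beside 4.15%), and without heart 38 it was 13 (20.3%, beside 13.8%). CXCL14 was under 0.05 in all 14 alternatives in which it was tested, CXCR7 in 14 of 15, IFNAR2 and STAT5B in 10, IL13RA2 in 9 and TLR21 in 3. Groups did not overlap in 11 to 27 members when 1 heart was left out (17.2% to 42.2%, beside 20.1% to 41.3% of all tested transcripts). Without heart 38 the share was 42.2% of members, beside 41.3% of all, and without heart 48 it was 17.2%, beside 25.9%. Without hearts 6 and 42 groups did not overlap in 27 members (42.2%, beside 35.1% of all). Fewer hearts overlap less often. Of the 31 genes whose fold changes were followed through the alternatives, 12 changed sign at least once and none passed the threshold. Other genes given with a test, such as IFNAR1, CCR7, PIAS2, BIRC2, RAC2 and IFI6, were not followed one by one. Without hearts 6 and 42, log2 fold changes were 0.28 for CXCL12, 0.17 for JAK1, 0.023 for LCP1, 0.30 for PLEK, 0.31 for IL6ST and 0.19 for STAT3. The median of all tested transcripts rose to -2.5e-05 in the same step. Median-ratio scaling gave 0.0063 for NFKBIA and 0.048 for CD276, leaving out the globin genes gave -0.028 for CD40 and -0.067 for CD151, and rescaling to the same sum gave -0.031 for CD151. With 1 heart left out, the ranges were -0.78 to 0.012 for JAK1, -0.047 to 0.17 for CD40, -0.042 to 0.052 for CD151, -0.13 to 0.077 for CD276, -0.066 to 0.23 for LY86, -0.48 to 0.099 for PLEK, -0.63 to 0.14 for IL6ST and -0.0071 to 0.19 for CXCR4. The cause was not tested. No paired analysis was possible because the columns carry heart numbers that the labels do not give, and nothing in the sources pairs a banded with a sham embryo.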

Other observations

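Among the interferon response genes, IFI27L2, an interferon-induced mitochondrial protein in mammals, was far more abundant than the rest, at 551, 394 and 361 RPKM in OFT-banded hearts 6, 11 and 17, against 393, 361 and 251 RPKM in sham hearts 38, 48 and 42 (log2 fold change 0.38, standard error 0.21; unadjusted p = 0.117 from limma). The other tested genes of that list ran at lower levels, and MX1, the classical antiviral GTPase, did not exceed 0.04 RPKM in any heart. IFI6 was at 7.86, 4.83 and 11.8 RPKM in OFT-banded hearts and 11.2, 10.2 and 19.0 RPKM in sham hearts, with heart 42 highest as for the receptor chain IFNAR1 (log2 fold change -0.68, standard error 0.33; unadjusted p = 0.0772 from limma). TAPBP (tapasin), which loads peptides on MHC class I, was at 1.38, 2.64 and 2.40 RPKM in OFT-banded hearts, against 3.09, 2.98 and 3.92 RPKM in sham hearts, without overlap (log2 fold change -0.48, standard error 0.22; unadjusted p = 0.0648 from limma).

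Of the inhibitors of cytokine signalling, SOCS2 was the most abundant, at 92.1, 78.5 and 76.1 RPKM in OFT-banded hearts and 73.8, 94.5 and 64.9 RPKM in sham hearts, and SOCS3 was at 3.84, 1.96 and 5.14 RPKM in OFT-banded hearts, against 2.77, 2.56 and 3.16 RPKM in sham hearts. Both had overlapping groups.

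Over the 11 tested leukocyte genes, the median Pearson correlation of log2(RPKM + 1) between pairs across the 6 hearts was 0.16, with 34 of 55 pairs above 0. The genes were measured in the same 6 libraries, which differ in depth and red cell transcripts, so this is given as a description only.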
